A study of Mus musculus with 9 samples.

Results

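The genes described here encode Crip1 and 7 relatives built mainly of LIM domains (Crip2, Csrp1, Csrp2, Lmo4, Fhl1, Fhl2 and Fhl3), 8 genes named in all. Crip1 was selected on its level in these same libraries, where it was listed at 0 in every parental library and was present in every derivative library. The relatives were named for their protein family with the earlier results known. Of the 8, 7 were among the 16399 genes listed, and 6 passed the filter on low values (at least 1 TPM in at least 3 libraries), which left 11287 genes for testing. Fhl1 was not analysed here, and Crip2 stayed below the filter. Crip1 passed it only through the derivatives, so it could not have been tested without differing, and its comparison with the parental line is given below as a description with no test.

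The values are TPM, transcript abundance per unit of transcript length scaled to the same total in every library, so levels of different genes can be set side by side. The 3 groups were cultured cells of MC38, a colon carcinoma line of the C57BL/6 mouse that carries a GFP and luciferase reporter, with 3 biological replicates each and 9 libraries in all. MC38-P is the parental line. MC38-LM3a and MC38-LM3b were recovered separately from liver metastases after 3 rounds of injection into the spleen of immunocompetent C57BL/6 mice, and were then grown in culture. Each derivative is 1 line, so its replicates measure the spread of that line and not of the selection. The comparison with MC38-P asks which genes differ in cells that colonised the liver repeatedly, and the comparison of the derivatives asks whether separate selections gave the same level. The files hold no counts, the depth is unknown, and 0 means only that a gene is listed at 0.

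A LIM domain is a small fold held by zinc that binds other proteins rather than DNA. Crip1, cysteine-rich intestinal protein 1, is little more than a single such domain and is best known from the intestine, where it is abundant in normal mucosa. Crip2 and the cysteine and glycine-rich proteins Csrp1 and Csrp2 carry a pair of them, and the Csrp proteins bind actin-crosslinking partners such as alpha-actinin. Lmo4 is a nuclear LIM-only adaptor that works through the cofactor Ldb1. Fhl2 and Fhl3 consist of LIM domains in a row and move between focal adhesions, actin fibres and the nucleus, where they act as transcriptional cofactors. Several genes of actin-linked LIM proteins are targets of the serum response factor SRF, which binds the CArG box.

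Promoter sequences of RefSeq (GRCm38.p6, an older build than the GRCm39 of the submitters' processing notes) were found for 6 of the 7 listed members, 11 promoters in all. The 250 bases before the start of Crip1 at chr12:113151762-113152011 on the plus strand are shown because Crip1 is the member that was listed at 0 in the parental line. Capitals mark its 13 CpG dinucleotides, the sites that DNA methylation can occupy. The median over 32807 promoters was 6, and 68.5% held fewer than Crip1. Methylation was not measured in these libraries.
Crip1: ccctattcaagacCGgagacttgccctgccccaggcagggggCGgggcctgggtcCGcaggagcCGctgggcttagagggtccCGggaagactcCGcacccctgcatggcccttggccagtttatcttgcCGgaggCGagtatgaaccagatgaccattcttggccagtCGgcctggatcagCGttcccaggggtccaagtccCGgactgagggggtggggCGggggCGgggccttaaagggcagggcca
Both promoters of Fhl2, a member that rose in both derivatives, are shown because they are the only promoters among the 11 with a CArG box, found in 1.47% of all 32807 promoters. The upstream one lies at chr1:43196762-43197011 and the other at chr1:43163962-43164211, both on the minus strand and written in the direction of transcription. Capitals mark the CArG box, which ends 87 bases before the start in the first and 22 bases before it in the second. In the second they also mark TGTGGT, the core letters bound by RUNX factors, which ends 140 bases before the start.
Fhl2 upstream promoter: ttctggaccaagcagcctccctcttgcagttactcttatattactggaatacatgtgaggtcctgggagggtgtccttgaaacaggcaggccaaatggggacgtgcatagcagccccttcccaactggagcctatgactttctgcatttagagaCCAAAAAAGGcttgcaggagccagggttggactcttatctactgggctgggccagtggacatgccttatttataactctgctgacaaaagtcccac
Fhl2 second promoter: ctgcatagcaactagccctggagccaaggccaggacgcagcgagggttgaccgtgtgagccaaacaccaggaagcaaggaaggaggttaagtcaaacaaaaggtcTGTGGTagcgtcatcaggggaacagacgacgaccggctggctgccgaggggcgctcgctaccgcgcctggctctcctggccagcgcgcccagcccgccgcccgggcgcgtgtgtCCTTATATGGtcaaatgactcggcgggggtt
TGTGGT was searched on both strands and occurred in 14% of all promoters. Among the members it was also present in 1 promoter of Csrp1, where it ends 30 bases before the start, and in 1 of Crip2, where it ends 144 bases before it. The AP-1 motif TGANTCA, likewise searched on both strands, occurred in 6.75% of all promoters and in none of the 11. No motif of these 3 was found in the 250 bases of Crip1. A match describes letters and not a bound site.

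Libraries within 2 groups differed along transcript length. Across 11096 genes with a known length, the difference of a library from its own replicates had a Spearman correlation with length of -0.65 for MC38-P replicate 3 and of 0.67 for MC38-LM3a replicate 3. For the MC38-LM3b libraries it was between -0.02 and 0.02. Genes are not independent, so no p-value is given, and the main results are also given without these 2 libraries or after a correction for GC content and length. The median difference over all tested genes was -2e-04 between MC38-LM3a and MC38-P but 0.21 between MC38-LM3b and MC38-P on the log2(TPM + 1) scale, so 0.21 is the level against which a difference of MC38-LM3b stands. The label of an epithelial cell was only partly borne out. Krt8 and Krt18, keratins of simple epithelia, had 744 to 1206 and 707 to 981 TPM, while 6 of the 12 epithelial markers, with the adhesion molecule Cdh1 among them, stayed under 1 TPM in every library. Of the 6 tested, Krt8, Krt18 and Epcam were lower than MC38-P in both derivatives, where 13.8% and 11.2% of all tested genes were lower. Krt19 was higher in MC38-LM3a (0.39, adjusted p = 0.00358 in limma), where 14.1% of all tested genes were higher, but not in MC38-LM3b (-0.08, adjusted p = 0.413 in limma). Its contrast of MC38-LM3b with MC38-LM3a was -0.46 and did not pass (adjusted p = 0.119 in limma). After the correction for GC content and length that contrast was -0.52 and passed (adjusted p = 0.0256 in limma). Cdx2 and Krt20 passed the filter on low values only through the groups where they were high, so they are described with no test. Cdx2 had 1.80 to 2.86 TPM in MC38-P and 0.28 to 0.92 TPM in the derivatives. Krt20 had 0.54 to 0.79 TPM in MC38-P and 0.69 to 1.83 TPM in the derivatives.

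Crip1 (NCBI Gene 12925, chromosome 12) was listed at 0 TPM in all 3 MC38-P libraries. It had 20.05, 19.38 and 15.4 TPM in MC38-LM3a (18.3 ± 2.51, SD, n = 3) and 13.66, 12.36 and 5.88 TPM in MC38-LM3b (10.6 ± 4.17). Every derivative library was thus above every parental one, and the lowest derivative value was that of MC38-LM3b replicate 3. No fold change is given against a group listed at 0. In MC38-LM3a replicates 1 and 2 Crip1 ranked 5922 and 5972 among the 16399 listed genes, a middling level, and in MC38-LM3b replicate 3 it ranked 9373. Of the 1177 genes listed at 0 in all MC38-P libraries, Crip1 was the only one that reached 1 TPM in all 6 derivative libraries, and it also reached 5 TPM in all of them. This count rests on the pattern that chose Crip1 and is no test.

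Between the derivatives, all 3 values of Crip1 in MC38-LM3a lay above all 3 in MC38-LM3b. The difference was -0.79 for MC38-LM3b against MC38-LM3a on the log2(TPM + 1) scale (standard error 0.24) and did not pass the test (adjusted p = 0.119 in limma, unadjusted p = 0.0076). After the correction for GC content and transcript length it was -0.68 (adjusted p = 0.156 in limma). Single libraries moved it both ways. Without MC38-LM3a replicate 3 it was -0.91 and passed (adjusted p = 0.0107 in limma), and without MC38-LM3b replicate 3, the low library, it was -0.45 and did not pass (adjusted p = 0.225 in limma). Over the 21 alternatives it ranged from -1.04 to -0.45, with adjusted p from 0.0102 to 0.372.

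The spread of Crip1 within MC38-LM3b was wide. Its coefficient of variation was 39.2%, against 2.06% to 6.9% for the other 5 tested members in the same libraries. Of the 3000 tested genes with a mean of 5 to 20 TPM in MC38-LM3b, 10, with Crip1 among them, varied at least as much (0.333%), and the median was 5.48%. The low value belonged to replicate 3, which did not stand apart along transcript length (rho = -0.01). In MC38-LM3a the coefficient of variation of Crip1 was 13.8%, near the median of 15.4% over 3209 genes of that level. Crip1 has a short transcript of 516 bases in GENCODE M21, whereas the other listed members have 1384 to 1828 bases. Whether its length bears on the spread was not tested.

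**Figure D1:**
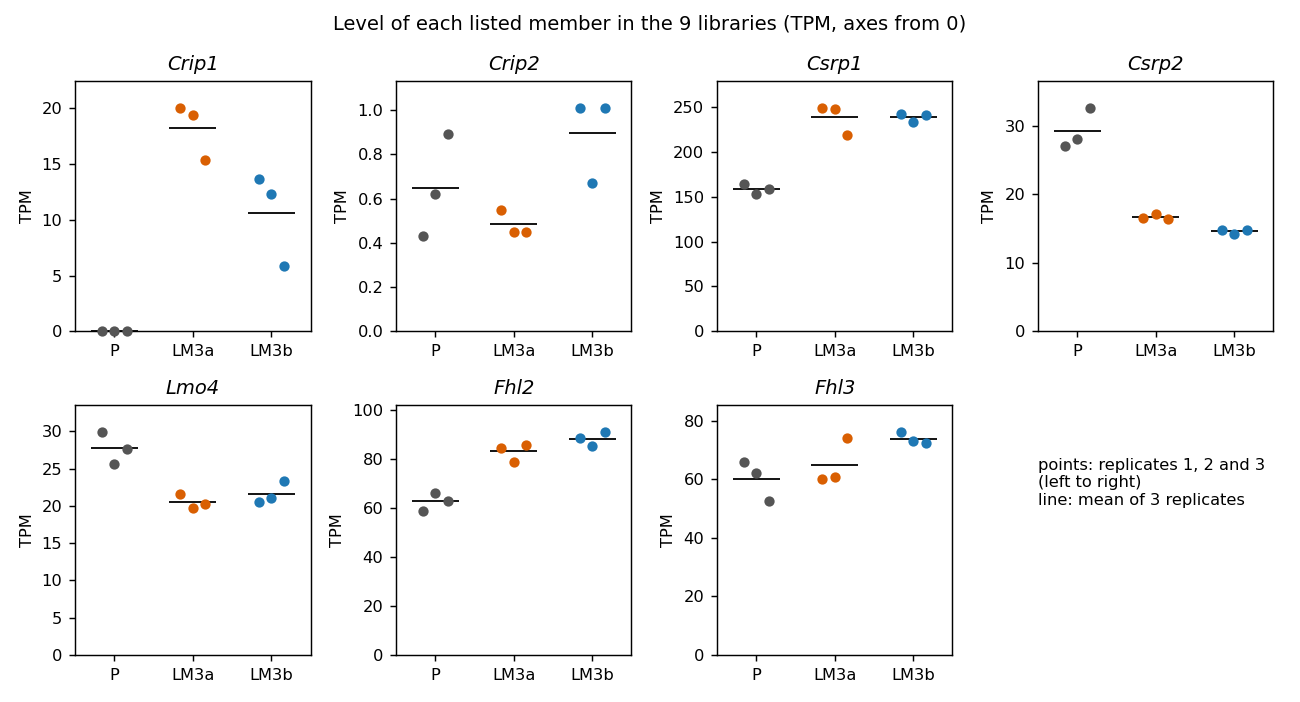
Level of each listed member in TPM (vertical axes, linear and starting at 0) in the 3 libraries of each line (P, LM3a, LM3b), with points for replicates and a line for the mean. Crip1 is at 0 in MC38-P and at 5.88 to 20.05 TPM in the derivatives, whereas Csrp1 and Fhl2 sit higher and Csrp2 and Lmo4 lower in all 6 derivative libraries than in MC38-P. The share of all genes with such separation is not given here.

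Crip2 (NCBI Gene 68337), a near relative of Crip1 that lies close to it on chromosome 12, showed no such switch. It had 0.43, 0.62 and 0.89 TPM in MC38-P, 0.55, 0.45 and 0.45 TPM in MC38-LM3a, and 1.01, 0.67 and 1.01 TPM in MC38-LM3b. MC38-P overlapped each derivative, while all 3 values of MC38-LM3b lay above those of MC38-LM3a. The level was near or under 1 TPM in all 9 libraries, and Crip2 was not tested.

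None of the genes around Crip1 showed its pattern. Of the 5 listed genes on each side of it in RefSeq order, 4 (Tex22, Gm30599, Tmem121 and Vipr2) never exceeded 0.12 TPM and were not tested. Mta1, a subunit of the NuRD chromatin remodelling complex, had 34.8 ± 5.91 TPM in MC38-P, 31.1 ± 5.02 TPM in MC38-LM3a and, for MC38-LM3b, 38.6 ± 1.88 TPM, and neither difference passed (adjusted p = 0.454 and 0.348 in limma). Tedc1, the next gene on the other side, a partner of tubulins, had 7.86 ± 1.16, 8.12 ± 1.94 and 10.2 ± 1.30 TPM and did not pass either (adjusted p = 0.92 and 0.111 in limma). Zfp386, a zinc finger gene, also missed the threshold in both (adjusted p = 0.485 and 0.103 in limma).
Pacs2, a sorting adaptor at contacts of the endoplasmic reticulum and mitochondria, was the neighbour that passed in both, from 11.6 ± 1.65 TPM to 16.3 ± 3.47 and 20.8 ± 1.05 TPM. Its differences were 0.44 and 0.79 (adjusted p = 0.0455 and 0.00174 in limma). Wdr60, a dynein component of cilia, passed in MC38-LM3b alone, at 0.43 (adjusted p = 0.0338 in limma) and at 0.21 after the correction for GC content and length (adjusted p = 0.0212 in limma), a contrast with MC38-LM3a (0.08) that did not itself pass (adjusted p = 0.121 in limma). Over the 412 tested genes of chromosome 12 the median difference was 0.02 for MC38-LM3a and 0.25 for MC38-LM3b, close to the medians of all genes.

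**Figure D2:**
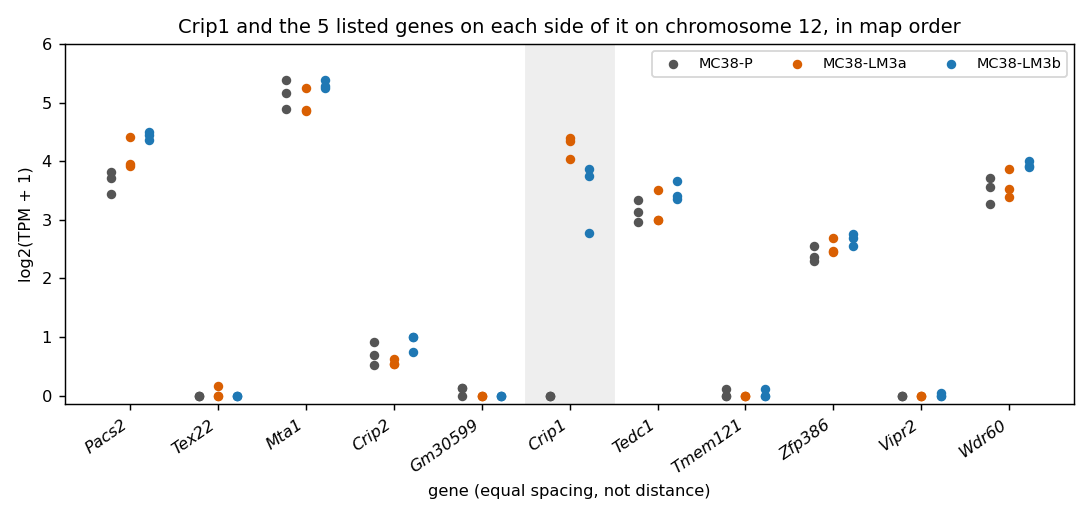
Level of Crip1 (shaded) and of the 5 listed genes on each side of it on chromosome 12, in map order at equal spacing, as log2(TPM + 1) on the vertical axis, with 1 point per library. Only Crip1 goes from 0 in all MC38-P libraries to above 1 TPM in the derivatives, and 4 of the 10 neighbours stay at or under 0.12 TPM.

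Csrp1 and Csrp2, near relatives that both bind the actin cytoskeleton, moved in opposite directions. Csrp1 (NCBI Gene 13007, chromosome 1) had 164, 153 and 158 TPM in MC38-P, 249, 248 and 219 TPM in MC38-LM3a, and 242, 233 and 241 TPM in MC38-LM3b. It was the most abundant member in every library, and no derivative value overlapped the parental ones. It rose by 0.58 in MC38-LM3a and by 0.59 in MC38-LM3b (standard error 0.065, adjusted p = 1.055e-04 and 7.645e-05 in limma). Centred on the median the rise in MC38-LM3b was 0.36 (adjusted p = 0.0269 in limma).
Csrp2 (NCBI Gene 13008, chromosome 10), first known from smooth muscle, had 27.1, 28.1 and 32.6 TPM in MC38-P, 16.5, 17.1 and 16.4 TPM in MC38-LM3a, and 14.8, 14.1 and 14.8 TPM in MC38-LM3b. The 3 groups did not overlap, and MC38-P was highest. Its differences on the log2(TPM + 1) scale were -0.77 for MC38-LM3a and -0.96 for MC38-LM3b, falls in both (standard error 0.093, adjusted p = 1.864e-04 and 3.64e-05 in limma).
The ratio of Csrp1 to Csrp2 within a library, which no scaling of the library can change, ranged from 4.86 to 6.05 in MC38-P, from 13.3 to 15.1 in MC38-LM3a and from 16.2 to 16.5 in MC38-LM3b. It averaged 5.45 ± 0.597, 14.3 ± 0.917 and 16.4 ± 0.126 (SD, n = 3).

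Fhl2 (NCBI Gene 14200, chromosome 1), a cofactor of SRF and other transcription factors, had 58.9, 66.2 and 62.9 TPM in MC38-P, 84.6, 78.8 and 85.8 TPM in MC38-LM3a, and 88.4, 85.3 and 91.2 TPM in MC38-LM3b. All 6 derivative values lay above the parental range. Fhl2 rose by 0.40 in MC38-LM3a and 0.49 in MC38-LM3b (standard error 0.069, adjusted p = 0.0017 and 3.586e-04 in limma). Centred on the median the rise in MC38-LM3b was 0.27 (adjusted p = 0.0347 in limma).
Fhl3 (NCBI Gene 14201, chromosome 4), which shares its domain plan, had a like level in MC38-P and differed less from it. It had 65.9, 62.2 and 52.7 TPM in MC38-P, 60.1, 61.0 and 74.2 TPM in MC38-LM3a, and 76.4, 73.3 and 72.3 TPM in MC38-LM3b. The first 2 groups overlapped, with a difference of 0.11 (standard error 0.10, adjusted p = 0.479 in limma). MC38-LM3b lay above MC38-P by 0.30 (adjusted p = 0.0351 in limma), not far above the 0.21 of all genes. Centred on the median the difference was 0.07 (adjusted p = 0.204 in limma), and without MC38-P replicate 3 it was 0.21 (adjusted p = 0.118 in limma). The call was lost in 11 of 21 alternatives.
The ratio of Fhl2 to Fhl3 ranged from 0.894 to 1.19 in MC38-P, from 1.16 to 1.41 in MC38-LM3a and from 1.16 to 1.26 in MC38-LM3b, and these ranges overlapped.

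Lmo4 (NCBI Gene 16911, chromosome 3) was the other member that was lower in the derivatives. It had 30.0, 25.7 and 27.6 TPM in MC38-P, 21.6, 19.7 and 20.3 TPM in MC38-LM3a, and 20.5, 21.1 and 23.3 TPM in MC38-LM3b, with no overlap between MC38-P and either derivative. The differences of Lmo4 were -0.42 for MC38-LM3a and -0.35 for MC38-LM3b (standard error 0.093, adjusted p = 0.00707 and 0.0124 in limma). The call in MC38-LM3b was lost without MC38-LM3b replicate 1 (-0.31, adjusted p = 0.0566 in limma) or replicate 2 (-0.33, adjusted p = 0.0511 in limma). The difference was larger when the libraries were centred on the median (-0.57, adjusted p = 0.00155 in limma) or quantile normalized (-0.58, adjusted p = 0.00123 in limma).

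**Figure D3:**
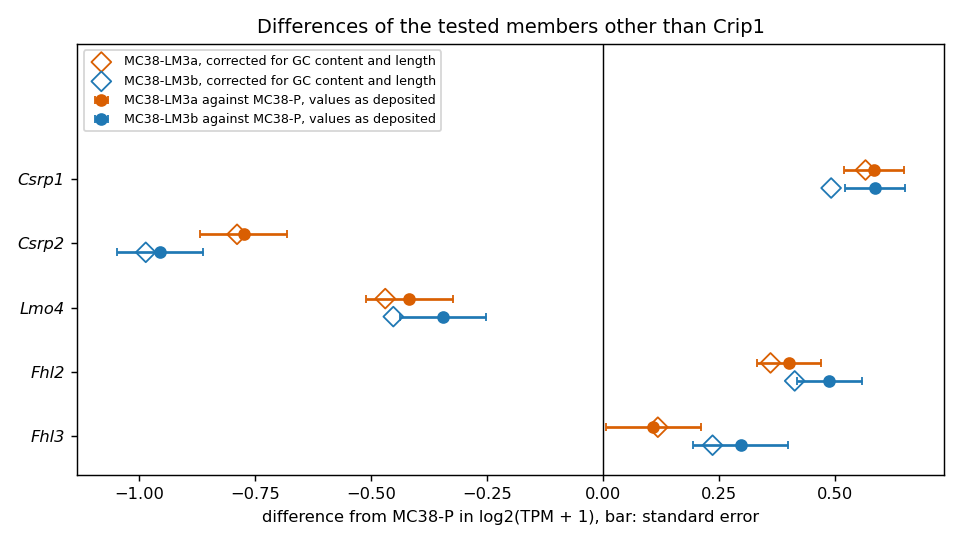
Difference of MC38-LM3a and MC38-LM3b from MC38-P in log2(TPM + 1) (horizontal axis, bars are standard errors) for the 5 tested members other than Crip1, with diamonds for the same differences after the GC and length correction. Csrp1 and Fhl2 lie to the right and Csrp2 and Lmo4 to the left of 0 in both derivatives, while Fhl3 lies at 0.11 and 0.30.

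Of the 5 tested members other than Crip1, 2 were higher and 2 lower in MC38-LM3a than in MC38-P at an adjusted p under 0.05, where 14.1% of all tested genes were higher and 13.8% lower. In MC38-LM3b 3 were higher and 2 lower, where 35.6% of all genes were higher and 11.2% lower. These comparisons share the MC38-P libraries and are the ones by which Crip1 was chosen, so nothing is read from the counts. The share of all genes whose ranges do not overlap is not given here. Nothing is therefore read from the separate ranges of the members either. None of the 5 also passed an absolute log2 fold change of 1 in either comparison as deposited, which 2.89% of tested genes did in MC38-LM3a and 3.93% in MC38-LM3b. Csrp2 did so in MC38-LM3b when the libraries were centred on the median (-1.18), quantile normalized (-1.20) or fitted without MC38-P replicate 1 (-1.01). When MC38-P replicate 3 and MC38-LM3a replicate 3 were left out, 4 of the 5 passed in MC38-LM3a and 5 in MC38-LM3b. In that fit 18.4% of all genes were higher and 45.2% lower in MC38-LM3a, and 46.3% and 19.0% in MC38-LM3b. Nothing is read from these counts either.

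Between the derivatives no difference of these members was resolved. By limma, 0 of the 5 differed between MC38-LM3b and MC38-LM3a at an adjusted p under 0.05, and 0 at an unadjusted p under 0.05. Over all tested genes these shares were 0.0532% and 38.1%. The differences were 0.00 for Csrp1, -0.18 for Csrp2, 0.07 for Lmo4, 0.09 for Fhl2 and 0.19 for Fhl3, each beside a median of 0.21 over all genes, and their standard errors were between 0.065 and 0.10. Fhl3 passed without MC38-LM3a replicate 3, at 0.28 (adjusted p = 0.019 in limma). Csrp2 passed when MC38-P replicate 3 was left out as well, at -0.19 (adjusted p = 0.00993 in limma).

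The order of the levels changed with the line. In MC38-P it ran from Csrp1 (159 ± 5.49 TPM) through Fhl2 (62.7 ± 3.65) and Fhl3 (60.3 ± 6.81), then Csrp2 (29.3 ± 2.93) and Lmo4 (27.8 ± 2.15), to Crip2 (0.647 ± 0.231) and Crip1 at 0. Fhl2 and Fhl3 overlapped, and so did Csrp2 and Lmo4. In MC38-LM3a Fhl2 (83.1 ± 3.77) stood clear of Fhl3 (65.1 ± 7.89), and Crip1 at 18.3 ± 2.51 TPM lay among Lmo4 (20.5 ± 1.00) and Csrp2 (16.7 ± 0.345), overlapping both. In MC38-LM3b the order was Csrp1 (239 ± 4.92), Fhl2 (88.3 ± 2.91), Fhl3 (74.0 ± 2.11), Lmo4 (21.6 ± 1.49), Csrp2 (14.6 ± 0.389) and Crip1, with Crip2 last, and all of these ranges were separate.

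The 5 tested genes whose pattern over the 9 libraries was most like that of Crip1 were Ckb, Scp2, Acads, Fuca1 and Dnajc22, with Pearson correlations of 0.991, 0.990, 0.989, 0.989 and 0.987. The libraries fall into groups, so the correlations mainly restate the gap between MC38-P and the derivatives, and within the 6 derivative libraries they were 0.853, 0.861, 0.934, 0.825 and 0.885. Ckb, the brain-type creatine kinase, had 50.6 ± 1.46 TPM in MC38-P, 115 ± 9.53 TPM in MC38-LM3a and, for MC38-LM3b, 106 ± 8.86 TPM. Fuca1, a lysosomal fucosidase, had 17.5 ± 0.636, 34.2 ± 2.47 and 31.5 ± 1.39 TPM, and Dnajc22, a membrane-bound co-chaperone, had 0.61 ± 0.0985, 3.30 ± 0.506 and 2.52 ± 0.651 TPM. Scp2 and Acads, of peroxisomal lipid transfer and mitochondrial fatty acid oxidation, changed by less, Acads from 59.4 ± 1.52 to 74.5 ± 1.30 and 71.8 ± 1.77 TPM. All 5 had values above 0 in MC38-P, where Crip1 was listed at 0. Among the members, Crip1 correlated with Csrp1 at 0.96, Fhl2 at 0.88, Fhl3 at 0.47, Csrp2 at -0.92 and Lmo4 at -0.95 over the same 9 libraries.

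A wider list of 62 LIM-domain genes that are not members was examined in the same fit, of which 57 were listed and 37 tested. In MC38-LM3a 8 were higher and 5 lower than in MC38-P, with a median difference of 0.12 beside -2e-04 for all genes. In MC38-LM3b 17 were higher and 3 lower, with a median of 0.30 beside 0.21. The remaining 24 and 17 did not pass. Over all tested genes 14.1% were higher and 13.8% lower in MC38-LM3a, and 35.6% and 11.2% in MC38-LM3b. The counts include Pdlim4, which passed the filter on low values only through MC38-P, and Fhl4, which passed it only through the derivatives, so neither could have been tested without differing. The split moved with scaling: centred on the median it was 14 higher and 7 lower in MC38-LM3b, and after correction for GC content and length it was 17 and 9 in MC38-LM3a and 16 and 7 in MC38-LM3b. Without MC38-P replicate 3 and MC38-LM3a replicate 3 it was 7 higher and 13 lower in MC38-LM3a, and 22 and 5 in MC38-LM3b. The shares over all genes in the same fits were as follows. After the correction 27% of genes were higher and 25.3% lower for MC38-LM3a, and 29.6% and 28.9% for MC38-LM3b. Centred on the median these shares were 19.8% and 20.1% for MC38-LM3a, and 22.9% and 26.4% for MC38-LM3b. Without the 2 libraries 18.4% were higher and 45.2% lower for MC38-LM3a, and 46.3% and 19.0% for MC38-LM3b.

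In that list Lpxn rose past both thresholds in both derivatives. Lpxn, leupaxin, a paxillin relative of focal adhesions that is most familiar from blood cells, had 2.47, 2.57 and 2.73 TPM in MC38-P, 15.8, 16.5 and 16.8 TPM in MC38-LM3a, and 16.5, 17.8 and 16.8 TPM in MC38-LM3b. Its differences were 2.28 and 2.33 (standard error 0.095, adjusted p = 9.101e-08 and 6.12e-08 in limma).
Pdlim4, a PDZ and LIM protein of actin stress fibres, had 3.74, 2.75 and 2.08 TPM in MC38-P, 0.56, 0.49 and 0.59 TPM in MC38-LM3a, and 0.40, 0.99 and 0.56 TPM in MC38-LM3b. Its differences were -1.30 and -1.22, the lowest of the list. They are given as a description with no test, because every derivative value lay under the 1 TPM of the filter.
Of the 9 tested genes of the zyxin and paxillin families, 2 were higher in MC38-LM3a (Lpxn and Pxn) and 5 in MC38-LM3b, with none lower. Over all tested genes 14.1% were higher and 13.8% lower in MC38-LM3a, and 35.6% and 11.2% in MC38-LM3b. After the correction for GC content and length, 7 of these 9 were higher for MC38-LM3a and 5 for MC38-LM3b, and 0 lower in either. In that fit 27% of all genes were higher and 25.3% lower for MC38-LM3a, and 29.6% and 28.9% for MC38-LM3b. Without the 2 libraries that stand apart, 2 of the 9 were higher and 3 lower in MC38-LM3a, and 6 higher and 0 lower in MC38-LM3b. There 18.4% of all genes were higher and 45.2% lower in MC38-LM3a, and 46.3% and 19.0% in MC38-LM3b. Of the 6 tested PDZ-LIM genes, Pdlim1 (0.68 and 0.75) and Pdlim2 (0.56 and 0.59) rose in both derivatives and Ldb3 (-0.42 and -0.41) fell in both, with -0.65 in MC38-LM3b after the correction. Centred on the median, the rise of Pdlim2 in MC38-LM3b did not pass (0.37, adjusted p = 0.0803 in limma). Pdlim7 fell in MC38-LM3a (-0.34, adjusted p = 0.0129 in limma) and had a difference of -0.02 in MC38-LM3b, and Pdlim5 had 0.29 in MC38-LM3a and rose in MC38-LM3b (0.62, adjusted p = 0.00286 in limma). After the correction for GC content and length Pdlim5 rose in both, by 0.31 and 0.35 (adjusted p = 8.13e-05 and 2.882e-05 in limma). The contrast between the derivatives did not pass for Pdlim5 or Pdlim7 (adjusted p = 0.119 for each in limma). None of the 3 tested LIM homeobox genes passed in either comparison by limma, 1 at an unadjusted p under 0.05 in MC38-LM3a and 0 in MC38-LM3b. Isl1 was lower in both after the correction for GC content and length (-0.40 and -0.38, adjusted p = 0.00939 and 0.0111 in limma).

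**Figure D4:**
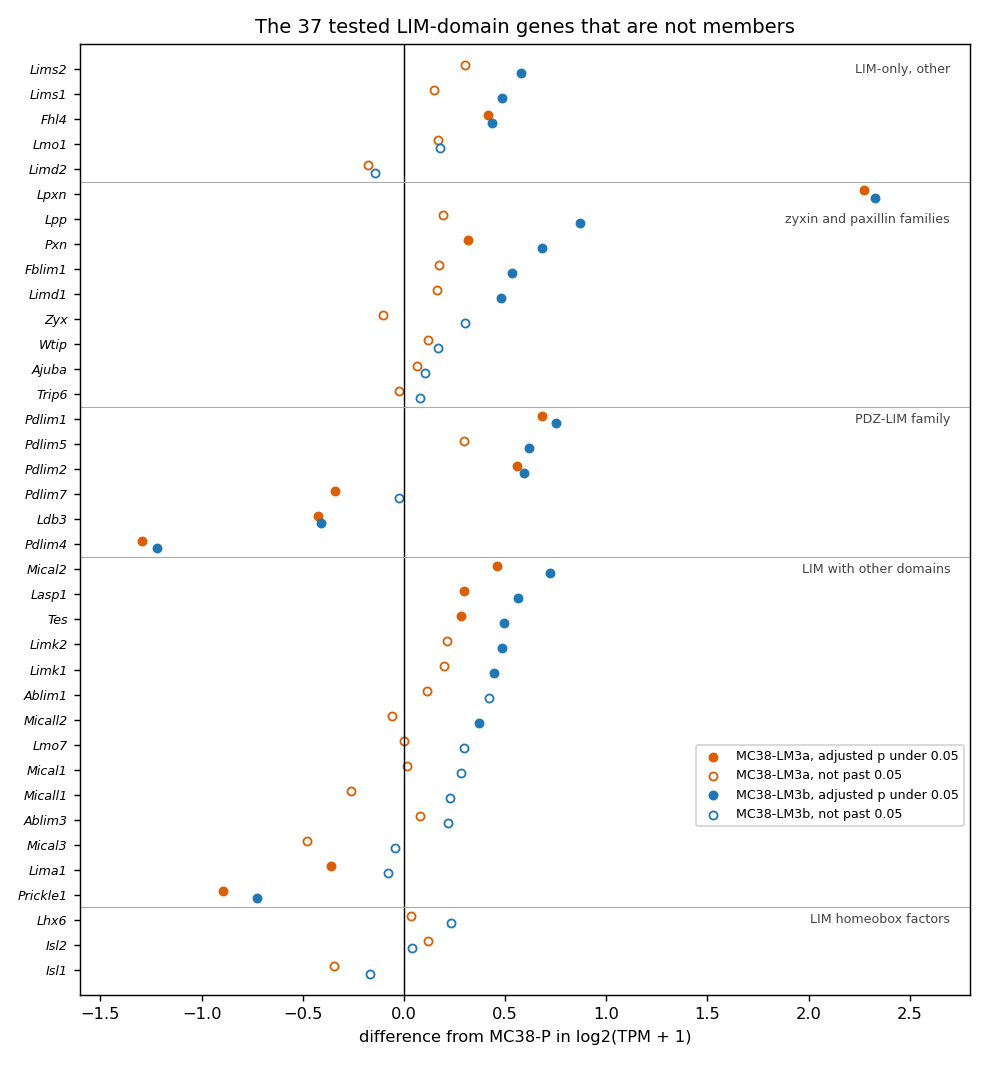
Difference from MC38-P in log2(TPM + 1) (horizontal axis) of the 37 tested LIM-domain genes outside the members, grouped by family, for MC38-LM3a (orange) and MC38-LM3b (blue), filled where the adjusted p is under 0.05. Lpxn stands apart at 2.28 and 2.33, and Pdlim4, tested only because of its level in MC38-P, lies lowest at -1.30 and -1.22.

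Partners of Lmo4 and other cofactors of LIM proteins form a list of 15 genes, of which 12 were listed and 11 tested. Ldb1, its stabilising single-stranded DNA-binding proteins and GATA factors are among them. In MC38-LM3a 0 rose and 2 fell, by limma, and in MC38-LM3b 2 rose and 2 fell, where 14.1% and 13.8% of all tested genes in MC38-LM3a and 35.6% and 11.2% in MC38-LM3b did so. After the correction for GC content and length these were 2 and 3, and 2 and 4, beside 27% and 25.3%, and 29.6% and 28.9%, of all genes. Without the 2 libraries that stand apart they were 0 and 8 for MC38-LM3a, and 2 and 2 for MC38-LM3b. In that fit 18.4% of all genes were higher and 45.2% lower for MC38-LM3a, and 46.3% and 19.0% for MC38-LM3b.
Ssbp2, a partner that protects the Ldb1 complex from degradation, had the largest fall, from 8.45 ± 0.795 TPM to 4.95 ± 0.486 and 4.03 ± 0.0551 TPM. Its differences were -0.67 and -0.91 (adjusted p = 0.00143 and 1.541e-04 in limma).
The largest rise was that of Gata2, from 31.5 ± 3.28 TPM to 45.5 ± 0.691 TPM in MC38-LM3b, at 0.52 (adjusted p = 0.00306 in limma), which was 0.31 after the correction and 0.30 centred on the median and passed in both. In MC38-LM3a Gata2 had 35.9 ± 4.68 TPM and did not pass (0.18, adjusted p = 0.247 in limma), but it passed there after the correction for GC content and length (0.25, adjusted p = 0.001 in limma) and when centred on the median (0.18, adjusted p = 0.0259 in limma). Without the 2 libraries that stand apart the difference of Gata2 in MC38-LM3a was 0.0020 (adjusted p = 0.98 in limma). The derivatives did not differ past the threshold in Gata2 (adjusted p = 0.119 in limma). Ldb1 itself had 64.0 ± 5.78, 70.5 ± 8.38 and 81.6 ± 1.94 TPM. It passed in MC38-LM3b at 0.35 (adjusted p = 0.0124 in limma), which was lost when libraries were centred on the median (0.13, adjusted p = 0.0969 in limma). After the correction for GC content and length Ldb1 passed in both, at 0.20 and 0.17 (adjusted p = 0.00643 and 0.0121 in limma). Without the 2 libraries that stand apart its difference in MC38-LM3a was 0.0039 (adjusted p = 0.964 in limma).

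SRF and its coactivators drive many actin genes, and 25 such genes and regulators were listed by hand, of which 23 were in the files and 21 tested. In MC38-LM3a 5 were higher and 1 lower, and in MC38-LM3b 9 were higher and 1 lower, with medians of 0.07 and 0.31. Over all tested genes the shares were 14.1% higher and 13.8% lower in MC38-LM3a and 35.6% and 11.2% in MC38-LM3b, with medians of -2e-04 and 0.21. After the correction for GC content and length the splits were 7 and 2, and 9 and 6, and centred on the median they were 7 and 3, and 6 and 4. Without the 2 libraries that stand apart MC38-LM3a had 5 higher and 11 lower, and MC38-LM3b had 12 higher and 1 lower. These splits are to be set beside the shares over all genes in the same fits, given with the wider LIM list above, and no direction of the list is read from them.
Ankrd1, an ankyrin repeat protein induced by mechanical stress, had the largest rise, with 11.1, 10.5 and 9.25 TPM in MC38-P, 60.1, 63.6 and 66.1 TPM in MC38-LM3a, and 71.2, 66.9 and 69.7 TPM in MC38-LM3b. Its differences were 2.51 and 2.64 (standard error 0.084, adjusted p = 4.314e-08 and 1.551e-08 in limma). Acta2, smooth muscle actin, had the largest fall, from 4.14 ± 0.236 TPM to 1.77 ± 0.450 and 1.56 ± 0.445 TPM, with differences of -0.90 and -1.02 (adjusted p = 0.00225 and 7.79e-04 in limma).
Tpm2, a tropomyosin, rose from 131 ± 11.5 TPM to 226 ± 10.2 and 213 ± 1.93 TPM, by 0.78 and 0.70 (adjusted p = 2.434e-05 and 4.173e-05 in limma). Srf had 39.6 ± 2.40, 34.7 ± 3.55 and 38.2 ± 0.785 TPM, and neither difference passed (-0.19 and -0.05, adjusted p = 0.15 and 0.659 in limma). After the correction for GC content and length Srf passed as lower in MC38-LM3b (-0.13, adjusted p = 0.0306 in limma). In MC38-LM3a it did not (-0.03, adjusted p = 0.669 in limma).

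Crip1 and several of these genes are also expressed in blood cells, fibroblasts or other cells of the liver, so markers of those cells were read in the same libraries. Of 18 hematopoietic markers 9 were listed and 8 of these stayed under 1 TPM in every library, with Ptprc at 0 to 0.09 TPM. Their summed level was 27.9 to 30.1 TPM in MC38-P, 34.6 to 41.6 TPM in MC38-LM3a and, for MC38-LM3b, 40.6 to 46.0 TPM. Nearly all of it was Cd68, a lysosomal protein and the only hematopoietic marker tested. Cd68 was higher in both derivatives (0.33 and 0.57, adjusted p = 0.022 and 7.948e-04 in limma), where 14.1% and 35.6% of all tested genes were higher. After the correction for GC content and length it also passed in both (0.29 and 0.55, adjusted p = 0.0136 and 2.46e-04 in limma). Fibroblast and stellate markers, 10 of 12 listed, summed to 136 to 174 TPM in MC38-P and to 54.8 to 73.7 and 66.7 to 73.8 TPM in the derivatives, mostly Col3a1, while Dcn stayed at or under 0.13 TPM. Of the 4 tested, Col1a1 and Col3a1 were lower in both derivatives, where 13.8% and 11.2% of all tested genes were lower. Pdgfrb went the other way, with 1.54 ± 0.338, 2.13 ± 0.389 and 3.66 ± 0.163 TPM. It passed in MC38-LM3b (0.88, adjusted p = 6.946e-04 in limma), where 35.6% of all tested genes were higher. After the correction for GC content and length it passed in both (0.38 and 0.63, adjusted p = 0.0069 and 2.608e-04 in limma). Hepatocyte markers, 7 of 10 listed, summed to 1.81 to 3.58 TPM in MC38-P, 2.06 to 2.31 TPM in MC38-LM3a and, for MC38-LM3b, 2.84 to 4.29 TPM. Endothelial markers, 7 of 9 listed, summed to 1.56 to 2.14, 1.53 to 2.20 and 2.04 to 2.55 TPM. The part of other cells in the level of Crip1 was not tested. In bulk RNA a change in the share of cells that express a gene and a change in RNA per cell cannot be told apart.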

How the data were processed

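Poly(A) RNA of the parental line and both derivatives, with 3 biological replicates of each, was sequenced on the DNBSEQ platform. The authors deposited 1 file per library, in which each of 16399 genes has a symbol, an NCBI Gene number and a TPM value with 2 decimals. The submitters' processing notes name HISAT and GRCm39, and the quantification tool is not given in the sources used here. The files hold no counts, so the depth is unknown and the count model of the study was replaced by limma.

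Values were analysed as log2(TPM + 1) in R 4.3.3 with limma 3.58.1, after a filter (1 TPM or more in 3 or more libraries) that 11287 genes passed. On this scale the change of low genes is understated. A single model with a mean per group covered all 9 libraries, the variance was allowed a trend with level, and p-values were adjusted by Benjamini and Hochberg's method over all tested genes. A gene passed at an adjusted p under 0.05, and the second threshold was an absolute log2 fold change of 1. The correction was a loess fit (span 0.3) on GC content and transcript length from GENCODE M21, known for 98.3% of tested genes. The procedure was tested on simulated data.

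The members and gene lists were chosen with earlier results of these data known. Genes named were the members, the 5 genes most correlated with Crip1, and the 5 listed genes on each side of it. From the lists of other LIM-domain genes, LIM cofactors and SRF targets, genes past both thresholds and the largest rise and fall were named. Others, such as Pxn, Pdlim1, Pdlim2, Pdlim5, Pdlim7, Fhl4, Isl1, Ldb3, Ldb1, Tpm2, Srf and the markers, were named after their values were seen. Alternatives changed the pseudocount, filter, scaling, variance model, libraries fitted and replicate block, and left out each replicate.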

Additional observations from a re-analysis of the deposited data

How the results depend on the processing

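The differences of the members and the counts of members and of other LIM-domain genes were recomputed under 21 alternatives, in which no call of these changed its direction. The mean of Crip1 was recomputed without each replicate, and some of the other lists and genes with the correction, with centring and without the 2 libraries that stand apart. Csrp1, Csrp2 and Fhl2 passed against MC38-P in both derivatives under all 21. The difference of Csrp1 was 0.55 to 0.65 in MC38-LM3a and 0.36 to 0.61 in MC38-LM3b, that of Csrp2 was -0.83 to -0.69 and -1.20 to -0.88, and that of Fhl2 was 0.36 to 0.44 and 0.27 to 0.53. Lmo4 passed in MC38-LM3a under all 21 and in MC38-LM3b under 19. The number of members other than Crip1 that passed was 4 in MC38-LM3a throughout. In MC38-LM3b it was 3 to 5 when libraries were left out, with the low value without MC38-LM3b replicate 1 or replicate 2. Between the derivatives it was 0 to 2, with 1 without MC38-LM3a replicate 3 and 2 without MC38-P replicate 3 as well, an alternative chosen after seeing the data.
The count of other LIM-domain genes in MC38-LM3a, 13 of 37 tested as reported, had the widest range of these counts. It was 8 of 28 tested with a filter of 5 TPM, and 6 of 37 with the replicate block. With the correction for GC content and length it was 26 of 37, where 27% of all genes were higher and 25.3% lower. With the block and the correction it was 22, and with only these 2 groups fitted it was 6. With libraries left out it was 6 to 20, lowest without MC38-P replicate 2. In MC38-LM3b it was 15 to 27. Beyond the main fit, shares over all genes are given only for the correction, the centring and leaving out the 2 libraries. Nothing about the members or the list is therefore read from the counts. The cause of these changes was not tested. The replicate numbers showed no strong pairing of the libraries, but the check does not settle it. The 9 correlations of same-numbered deviations, on values without the correction, were -0.66 to 0.07, and none was over 0.1. The negative ones were those between MC38-P and MC38-LM3a, the groups with the 2 libraries that stand apart. In 6 of 9, the pairs with MC38-LM3b, the best match was the same number. The replicate block ended 1 call of a member, that of Fhl3 in MC38-LM3b (adjusted p = 0.0842 in limma). The size of any difference of Crip1 from MC38-P depends on the pseudocount, so none is given. Without read counts, how few reads a value of 0 stands for is unknown.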
